A study of Mus musculus with 6 samples.

Results

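The *Slc25* genes encode the mitochondrial carrier family. They were taken as all genes on the array whose symbol, read from the RefSeq accession of the probe, starts with Slc25a, with 1 exception that is not reported here, which gave 46 of 20630 named genes. Each gene was read from the probe that was brightest over the 6 arrays, so the choice used names and mean brightness and not the difference between the groups. The study compared interscapular BAT (iBAT) of 3 control samples with that of 3 *ob/ob* samples, 1 Agilent single-color array for each sample, as a model of obesity in which brown fat takes on features of white fat. All 6 samples were labeled as male C57BL/6 mice 16 weeks old. The *ob/ob* mice carry a mutated leptin gene in all cells, and the control mice were labeled only as control, without saying whether they were wild-type or heterozygous littermates. Whether each sample was 1 mouse or a pool is not stated in the labels, and a p value here measures only the spread between these samples.

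Carriers of this family sit mostly in the inner mitochondrial membrane, where each moves a small set of metabolites, nucleotides, or cofactors between the cytosol and the matrix, usually by exchange. They bring in ADP and phosphate for ATP synthesis, pass citrate, malate, and aspartate out, and supply the matrix with coenzyme A, NAD, glutathione, and iron. Uncoupling protein 1, the heat-producing protein of brown adipocytes, has the same protein fold, and brown adipocytes, which are packed with mitochondria, depend on these carriers to feed oxidation.

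Promoter sequences are shown for 4 members that the results turn on, since 2 of them (*Slc25a4* and *Slc25a42*) were low and 1 (*Slc25a30*) was high on the same arrays, while *Slc25a5* encodes the isoform most like that of *Slc25a4*. Each sequence is the 250 bases before the start site, in the direction of the gene, from the RefSeq table of build GRCm38.p6. Capitals mark matches of 3 motifs on either strand. The first motif, a GA-binding protein site, is spelled CCGGAAG. The CCAAT box is spelled as its name says, without other letters required on its sides. The last motif, the GC box, is spelled GGGCGG. The regions are chr8:46211063-46211312 on the minus strand for *Slc25a4*, chrX:36795347-36795596 on the plus strand for *Slc25a5*, chr14:75787038-75787287 on the minus strand for *Slc25a30*, and chr8:70212282-70212531 on the minus strand for *Slc25a42*.
Slc25a4: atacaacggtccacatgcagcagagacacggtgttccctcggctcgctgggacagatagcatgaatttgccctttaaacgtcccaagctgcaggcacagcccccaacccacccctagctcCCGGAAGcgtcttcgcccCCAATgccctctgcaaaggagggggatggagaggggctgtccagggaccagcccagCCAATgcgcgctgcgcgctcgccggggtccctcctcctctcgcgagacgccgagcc
Slc25a5: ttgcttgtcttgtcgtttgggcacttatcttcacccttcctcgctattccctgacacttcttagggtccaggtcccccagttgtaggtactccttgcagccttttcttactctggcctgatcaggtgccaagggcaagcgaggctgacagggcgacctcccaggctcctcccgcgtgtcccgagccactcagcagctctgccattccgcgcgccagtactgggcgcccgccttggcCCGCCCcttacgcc
Slc25a30: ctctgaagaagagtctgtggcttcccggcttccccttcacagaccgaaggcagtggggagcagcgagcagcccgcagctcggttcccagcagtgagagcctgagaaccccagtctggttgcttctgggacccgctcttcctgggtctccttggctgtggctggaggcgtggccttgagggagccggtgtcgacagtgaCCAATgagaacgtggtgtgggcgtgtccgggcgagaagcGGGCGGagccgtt
Slc25a42: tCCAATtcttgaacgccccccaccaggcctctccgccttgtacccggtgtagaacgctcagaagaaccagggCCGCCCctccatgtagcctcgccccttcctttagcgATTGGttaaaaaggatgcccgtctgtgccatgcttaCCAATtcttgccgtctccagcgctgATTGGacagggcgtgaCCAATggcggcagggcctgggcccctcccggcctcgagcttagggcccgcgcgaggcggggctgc

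A window was found for 35 of the 46 members. The *Slc25a42* window held 5 CCAAT boxes and 1 GC box, and the *Slc25a4* window held 2 CCAAT boxes and 1 GA-binding protein site. *Slc25a30*, which ran opposite to these 2 genes on the arrays, had 1 CCAAT box and 1 GC box, and *Slc25a5* had 1 GC box. Among the 35 members, a CCAAT box was present in 18 (51.4%, against 37.5% of 27025 genes with a window), a GC box in 24 (68.6% against 35.4%), and a GA-binding protein site in 5 (14.3% against 7.83%). A cAMP response element (TGACGTCA) was found in 2 (5.71% against 1.77%), *Slc25a25* and *Slc25a36*. The letters AAGGTCA, a core of nuclear receptor sites, were found in 1 (2.86% against 4.7%), *Slc25a34*, and their longer form TCAAGGTCA, which contains them, in 0 (against 0.422%). The members' windows were also richer in G and C, with a median of 57.6% over 45 windows against 52.4% over all windows. Letters in a window are a description and do not show that a factor binds there.

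Unless said otherwise, values below are log2 signals of the probe after quantile normalization between the arrays, so that a difference of 1 is a 2-fold difference in signal. Each array carried 43020 spots, of which 83.5% to 89.9% lay well above background and 0 were saturated. Control 1, control 3, and *ob/ob* 1 were read in the same scan, and each other array was read in a scan of its own. 2 arrays stood apart from the others of their group. Control 3 lay close to *ob/ob* 1 for the carrier genes. Only 2 members were at least 2-fold lower and 1 at least 2-fold higher on *ob/ob* 1 (3.89% and 9.05% of all genes). On control 3, 20 members were at least 2-fold lower and 6 at least 2-fold higher than on control 1 (26.7% and 20.8%). *ob/ob* 3 differed from *ob/ob* 1 by at least 2-fold in 28 members, 22 higher and 6 lower on *ob/ob* 3 (30.3% and 28.8%). *ob/ob* 2 was that much lower than *ob/ob* 1 in 0 members and higher in 0 (2.39% and 0.994%). Control 2 was that much lower than control 1 in 1 member and higher in 1 (1.6% and 1.43%). Compared with control 1, *ob/ob* 3 had 3 members at least 2-fold lower and 10 at least 2-fold higher (12.6% and 15.9%). These were fewer than compared with *ob/ob* 1. The arrays thus stood apart over all genes and not only in the carriers. Each array is named here as it was labeled, and whether the labels of 2 samples were exchanged was not tested. The spike-in probes, which report added RNA, had a median log2 signal before normalization between the arrays of 4.01 on *ob/ob* 3 and of 6.19 to 7.10 on the other arrays. Results are therefore also given without control 3 and *ob/ob* 3. Because these 2 arrays were left out for their levels, the p values of that fit are too small, and its counts are only a description. The mutated gene, *Lep*, was higher on all 3 *ob/ob* arrays (6.68, 5.83, and 9.33) than on the controls (5.74, 4.57, and 5.30), but its probe does not read the mutation.

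**Figure D1:**
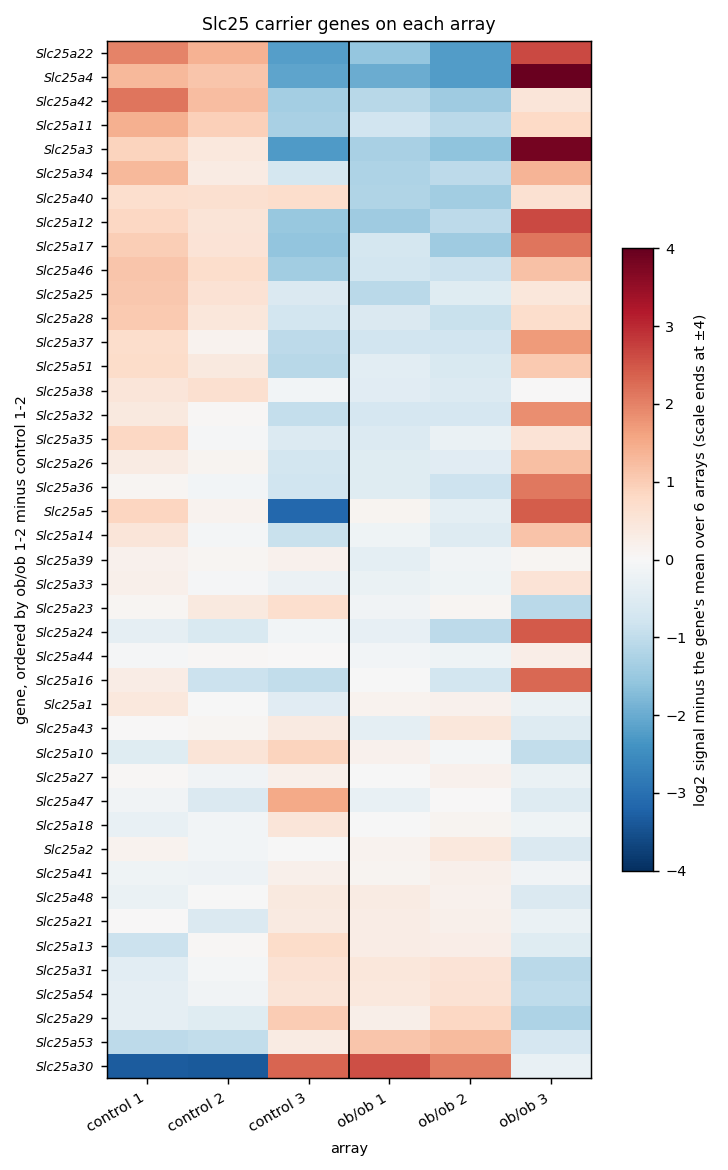
Log2 signal of 43 of the 44 carrier genes tested (vertical axis) on each of the 6 arrays (horizontal axis), as the difference from the gene's mean over the arrays, in color from −4 to 4 log2 units. Genes are ordered by the mean of *ob/ob* 1 and 2 minus the mean of control 1 and 2, and the column of control 3 resembles those of *ob/ob* 1 and 2, while *ob/ob* 3 has the highest value for 18 genes.

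The carrier family as a whole did not separate *ob/ob* from control iBAT. Of the 46 members, 44 were detected on at least 3 of the 6 arrays and tested, and 39 were detected on all 6. The remaining 2 were *Slc25a15*, an ornithine carrier not well above background on any array, and *Slc25a45*, detected on 2 arrays. The log2 fold change (*ob/ob* minus control) was below 0 for 25 members and above 0 for 19, and 57.1% of all 19007 genes tested were also below 0 and 42.9% above it. The median of the members was −0.03, compared with −0.09 over all genes, and the sign of the members' median turned with normexp background correction (0.0045), which split the members into 20 below and 24 above 0. Scaling the arrays to their 75th percentile moved the median over all genes to −0.30 and that of the members to −0.43, and split the members into 28 below and 16 above 0, with 67.2% of all genes below 0. At an unadjusted limma p under 0.05, 0 members were higher and 0 lower, where 2.03% and 1.68% of all genes were (3.71% in either direction). At an adjusted p under 0.05, 0 members were called, and 0% of all genes were. The methods' t-test also called 0 members at an unadjusted p under 0.05, where 2.17% of all genes were higher and 2.14% lower.

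Only 2 members had every *ob/ob* array below every control array, *Slc25a40* and *Slc25a39*, while 4.19% of all genes were separated in that direction. 0 members had every *ob/ob* array above the controls, as 3.76% of all genes had (7.94% in either direction). At least 2-fold lower mean signals in *ob/ob* iBAT were found for 2 members (*Slc25a42* and *Slc25a40*; 6.47% of all genes) and at least 2-fold higher ones for 4 (*Slc25a30*, *Slc25a5*, *Slc25a53*, and *Slc25a16*; 6.68% of all genes). Of these, *Slc25a30* was detected on only 1 control array. For 44 of 44 members, the difference between the group means was smaller than the range within at least 1 group. The median SD of a member was 0.70 among the controls and 0.89 among the *ob/ob* samples, compared with 0.53 and 0.77 over all genes. 13 members spanned over 2 log2 units among the controls, and 16 did so among the *ob/ob* samples.

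**Figure D2:**
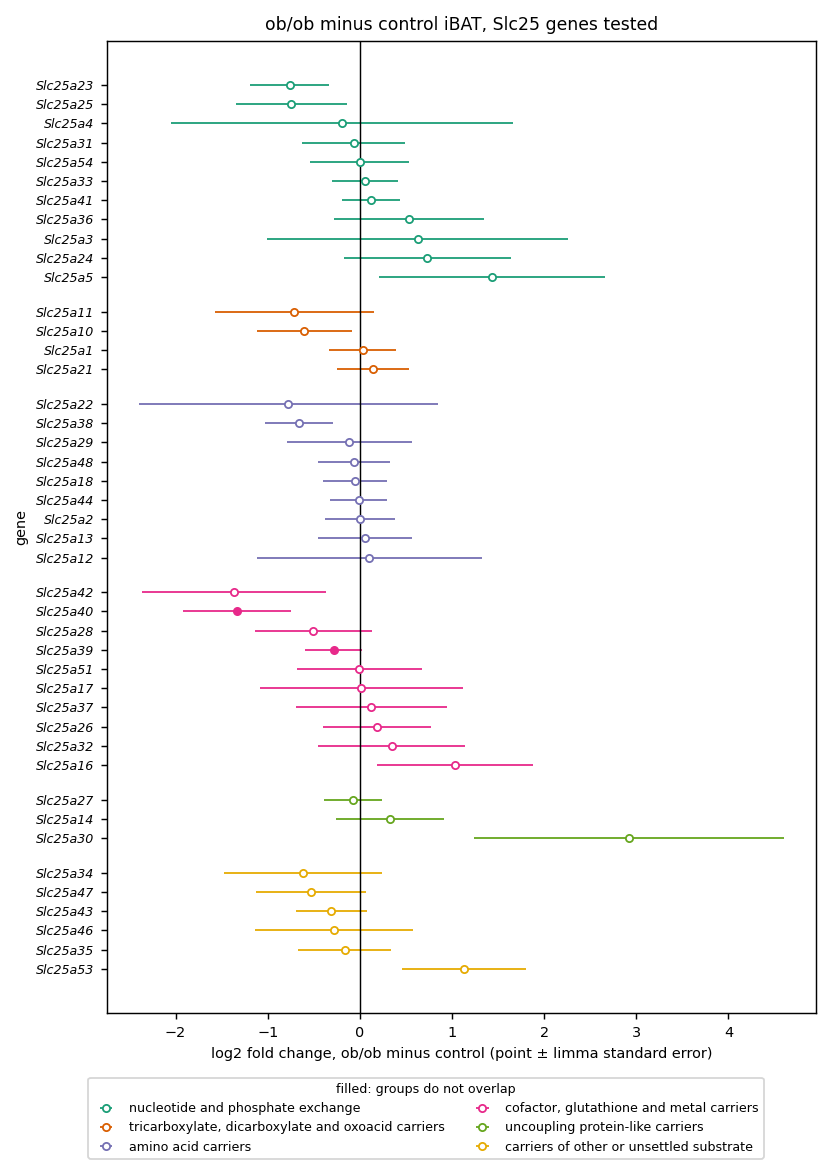
Log2 fold change, *ob/ob* minus control (horizontal axis, point ± limma standard error, 3 arrays a group), for 43 of the 44 carrier genes tested (vertical axis), grouped by the role of the carrier. Filled points mark *Slc25a40* and *Slc25a39*, whose groups did not overlap, and most standard errors reach 0.

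Without control 3 and *ob/ob* 3, 30 members had lower and 14 had higher means in *ob/ob* iBAT, and the median was −0.46 for the members and 0.07 for all genes. In that fit, 20 members were lower and 5 higher at an unadjusted p under 0.05, compared with 29.8% and 25.5% of all genes, and 23 members passed an adjusted p under 0.05, compared with 49.5% of all genes. The 5 and the 23 include *Slc25a30*, whose probe was not well above background on control 1 and control 2. Within the shared scan, *ob/ob* 1 was below the mean of control 1 and control 3 in 31 of 44 members (54.2% of all genes). The median difference was −0.27 for the members and −0.06 for all genes. The fit with the scan as a block reduced to this same difference, since each other array was alone in its scan. It had the same 31 members below and 13 above 0 and adds no second result.

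**Figure D3:**
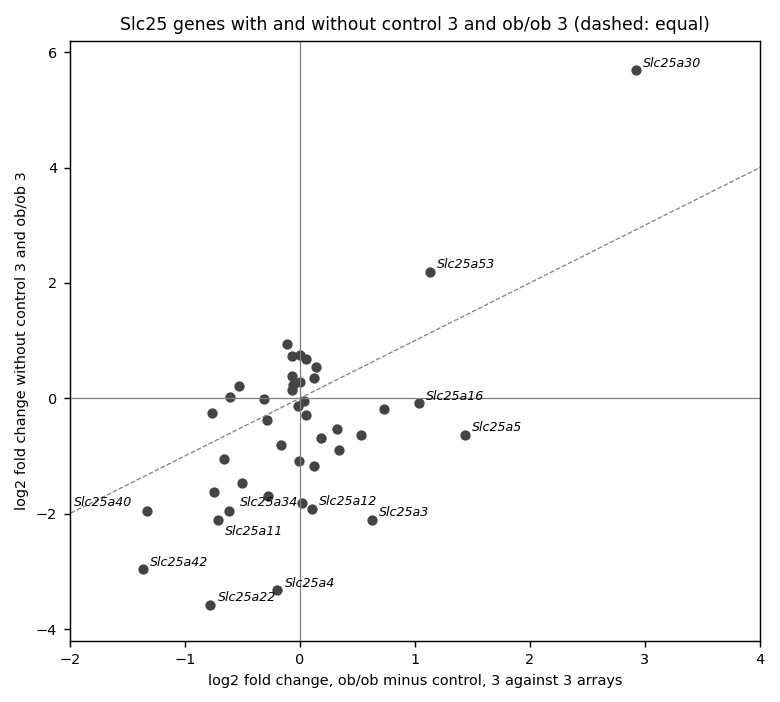
Log2 fold change, *ob/ob* minus control, over 3 against 3 arrays (horizontal axis) and without control 3 and *ob/ob* 3 (vertical axis), 1 point for each of 43 of the 44 carrier genes tested, with the dashed line at equal values. *Slc25a4* moved from −0.19 to −3.33 and *Slc25a3* from 0.63 to −2.11, and the vertical value of *Slc25a30* rests on 2 control arrays that were not well above background.

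Among the carriers for ADP, ATP, and phosphate, *Slc25a4* encodes the ADP/ATP exchanger that prevails in heart and muscle, and its probe was the brightest of the members. Its log2 signal was 12.49, 12.28, and 9.06 on control 1, 2, and 3 and 9.18, 8.93, and 15.13 on *ob/ob* 1, 2, and 3. Control 3 was thus as low as the first 2 *ob/ob* arrays, *ob/ob* 3 was the highest of all, and the groups overlapped. The means were 11.28 ± 1.92 (SD, n = 3) and 11.08 ± 3.51 (SD, n = 3), a log2 fold change of −0.19 with a standard error of 1.86 (limma adjusted p = 0.999992). Without control 3 and *ob/ob* 3 it was −3.33. *Slc25a3*, the phosphate carrier that imports phosphate for ATP synthesis, had log2 signals of 11.45, 10.97, and 8.29 on the controls against 9.26, 8.93, and 14.39 on the *ob/ob* arrays. The arrays fell in nearly the same order as for *Slc25a4*, and the log2 fold change was 0.63 with a standard error of 1.63, or −2.11 without control 3 and *ob/ob* 3. A second, dimmer probe of *Slc25a3* had a log2 fold change of 0.20. *Slc25a5*, the ADP/ATP exchanger of most dividing and non-muscle cells, read 9.33, 8.62, and 5.35 on the controls against 8.60, 8.09, and 10.92 on the *ob/ob* arrays. Its control 3 value was the lowest by far, *ob/ob* 1 and 2 lay only slightly below control 1 and 2, and the log2 fold change of 1.44 (standard error 1.23) turned to −0.63 without control 3 and *ob/ob* 3.

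The ATP-Mg/phosphate carriers, which are switched on by calcium and set the adenine nucleotide content of the matrix, did not move together. *Slc25a23* read 7.55, 7.85, and 8.16 on the controls against 7.33, 7.56, and 6.38 on the *ob/ob* arrays. Only *ob/ob* 2 reached the range of the controls, by a margin of 0.01, and the log2 fold change was −0.76 (standard error 0.43, limma p = 0.12, exact permutation p = 0.2), or −0.25 without control 3 and *ob/ob* 3. *Slc25a24* read 7.29, 7.03, and 7.56 on the controls against 7.34, 6.61, and 10.13 on the *ob/ob* arrays. The log2 fold change of 0.73 came with *ob/ob* 3 alone above the controls and was −0.19 without control 3 and *ob/ob* 3. For *Slc25a25*, 2 probes of the same RefSeq transcript differed. The brighter probe read 7.25, 6.75, and 5.59 on the controls against 5.08, 5.68, and 6.60 on the *ob/ob* arrays (log2 fold change −0.74, standard error 0.60), and its groups overlapped. The dimmer probe read 4.95, 4.07, and 4.37 on the controls against 5.15, 4.99, and 5.66 on the *ob/ob* arrays, every one above every control, and its log2 fold change was 0.80 (standard error 0.39, limma p = 0.080, exact permutation p = 0.1). Over all 11 carriers of nucleotides and phosphate, 5 were below and 6 above 0, with a median of 0.06 and a range from −0.76 to 1.44, and 8 were below 0 without control 3 and *ob/ob* 3.

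**Figure D4:**
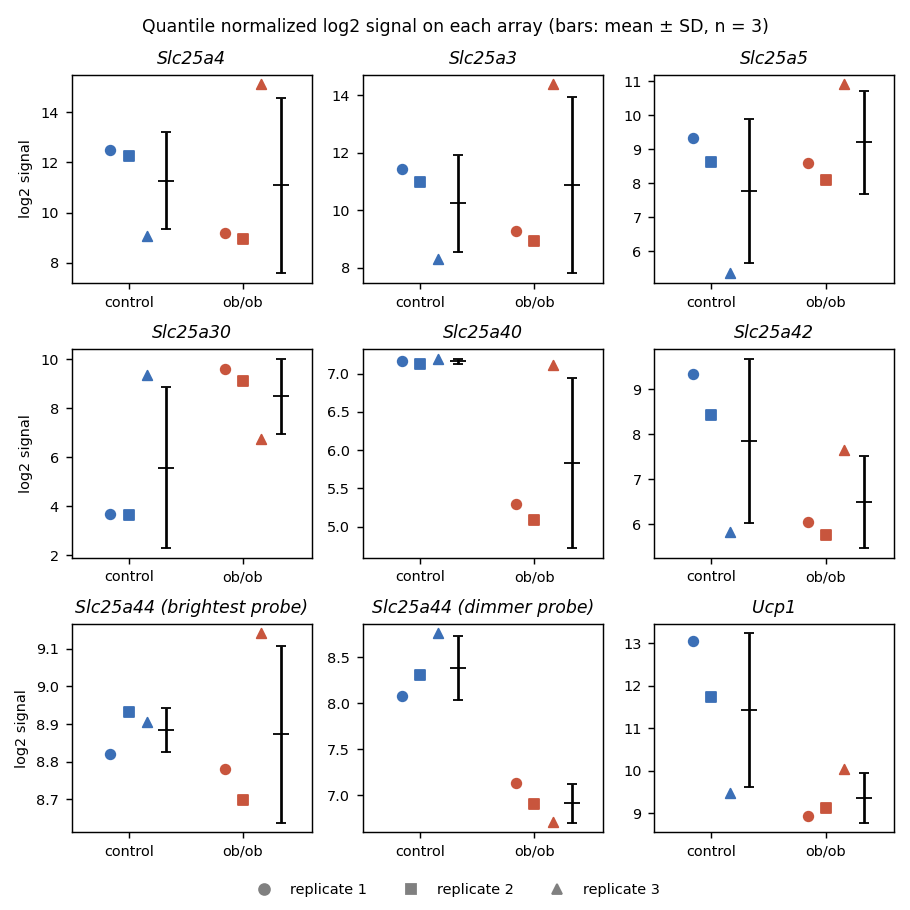
Quantile normalized log2 signal (vertical axes) on each array for 7 carrier genes, a second probe of *Slc25a44*, and *Ucp1*, by group (horizontal axes), with the marker shape giving the replicate and bars the mean ± SD (n = 3). The triangles, control 3 and *ob/ob* 3, lie apart from the other arrays of their group for *Slc25a4*, *Slc25a3*, *Slc25a5*, *Slc25a30*, *Slc25a42*, and *Ucp1*, while the groups do not overlap for *Slc25a40* and for the dimmer probe of *Slc25a44*.

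Among the carriers of tricarboxylates, dicarboxylates, and oxoacids, 2 members were below and 2 above 0. *Slc25a1*, the citrate carrier that exports acetyl units for fatty acid synthesis, read 7.48, 7.05, and 6.63 on the controls against 7.21, 7.24, and 6.81 on the *ob/ob* arrays. All *ob/ob* arrays lay inside the range of the controls, and the log2 fold change was 0.03 (standard error 0.36). *Slc25a11*, the oxoglutarate/malate carrier of the malate-aspartate shuttle, read 10.83, 10.36, and 8.10 on the controls against 8.63, 8.32, and 10.20 on the *ob/ob* arrays. Control 3 was the lowest array and the groups overlapped, so that the log2 fold change of −0.71 (standard error 0.86) became −2.12 without control 3 and *ob/ob* 3. *Slc25a10*, the dicarboxylate carrier, was detected on only 2 control arrays and 1 *ob/ob* array, with log2 signals of 3.18, 4.18, and 4.55 against 3.83, 3.58, and 2.68. *Slc25a21*, the oxoadipate carrier, had a log2 fold change of 0.14.

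The amino acid carriers included 6 members below and 3 above 0 among the 9 tested, with a median of −0.06. *Slc25a12*, the aspartate/glutamate carrier of the malate-aspartate shuttle in muscle and brain, read 7.42, 7.13, and 5.09 on the controls against 5.17, 5.55, and 9.23 on the *ob/ob* arrays. As for *Slc25a4*, *ob/ob* 3 was the highest array, and control 3 was low together with *ob/ob* 1 and 2. *Slc25a13*, the form that prevails in liver, went another way, with 5.54, 6.47, and 7.13 on the controls against 6.71, 6.66, and 5.93 on the *ob/ob* arrays. The log2 fold changes were 0.10 (standard error 1.22) and 0.06 (standard error 0.51), and without control 3 and *ob/ob* 3 they were −1.91 and 0.68. *Slc25a22*, a glutamate carrier, read 9.01, 8.43, and 4.82 on the controls against 5.47, 4.80, and 9.66 on the *ob/ob* arrays. Its log2 fold change of −0.78 had a standard error of 1.62 and was −3.58 without control 3 and *ob/ob* 3, the lowest of the members there. *Slc25a38*, a glycine carrier needed for heme synthesis, had a log2 fold change of −0.66 (standard error 0.37).

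*Slc25a44*, the carrier of branched-chain amino acids that brown fat uses as a fuel, gave different results with its 2 probes, which carry the accessions of different RefSeq transcripts. The brighter probe read 8.82, 8.93, and 8.90 on the controls against 8.78, 8.70, and 9.14 on the *ob/ob* arrays. These arrays lay within 0.44 log2 units of each other, and the log2 fold change was −0.01 (standard error 0.31). The dimmer probe read 8.08, 8.31, and 8.76 on the controls against 7.13, 6.90, and 6.71 on the *ob/ob* arrays. Every *ob/ob* array lay below every control with a gap of 0.95, and the log2 fold change was −1.47 (standard error 0.34), with a limma p of 0.0045 that did not pass adjustment over all probes (adjusted p = 0.999992). A two-sided exact permutation test gave p = 0.1, the smallest that 3 against 3 arrays allow. With the mean of a gene's probes in place of the brightest, *Slc25a44* was the only member at an unadjusted p under 0.05, with a log2 fold change of −0.74. Of all genes, 1.45% were lower and 1.9% higher at that threshold there. Of 7 genes that break down branched-chain amino acids in mitochondria, 4 were below and 3 above 0 with a median of −0.45, and 0 passed an unadjusted p under 0.05. Of the 4 enzymes of the malate-aspartate shuttle, 0 passed. *Got2*, mitochondrial aspartate aminotransferase, was higher on every *ob/ob* array than on the controls, as 3.76% of all genes were. The gap was only 0.0015 log2 units, and the log2 fold change of *Got2* was 0.39 (standard error 0.31).

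The carriers of cofactors, glutathione, and metals held both members whose groups did not overlap. *Slc25a40*, related to the glutathione carrier, read 7.16, 7.13, and 7.20 on the controls against 5.29, 5.09, and 7.11 on the *ob/ob* arrays. The controls lay within 0.07 log2 units of each other, control 3 included, *ob/ob* 1 and 2 were lower, and *ob/ob* 3 was just under the lowest control by 0.02. The means were 7.16 ± 0.03 (SD, n = 3) and 5.83 ± 1.11 (SD, n = 3), and the log2 fold change was −1.33 with a standard error of 0.59 (limma p = 0.061, adjusted p = 0.999992, exact permutation p = 0.1). Without control 3 and *ob/ob* 3 it was −1.95, and within the shared scan *ob/ob* 1 minus the mean of the 2 controls was −1.89. *Slc25a39*, the mitochondrial glutathione importer, read 4.99, 4.92, and 4.999 on the controls against 4.45, 4.70, and 4.90 on the *ob/ob* arrays. The gap between the groups was 0.02, and the log2 fold change was −0.29 (standard error 0.30).

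*Slc25a42*, which carries coenzyme A into the matrix, had the lowest log2 fold change of the members at −1.36 (standard error 1.0002, limma p = 0.22, exact permutation p = 0.3). Its log2 signals were 9.33, 8.41, and 5.82 on the controls against 6.05, 5.76, and 7.66 on the *ob/ob* arrays. All *ob/ob* arrays lay below control 1 and control 2 and only 1 below control 3, and without control 3 and *ob/ob* 3 the value was −2.96. *Slc25a16*, also linked to coenzyme A transport, was detected on 5 arrays and had a log2 fold change of 1.03, or −0.09 without those arrays. *Slc25a51*, the NAD carrier, read 8.43, 8.10, and 6.58 on the controls against 7.26, 7.09, and 8.74 on the *ob/ob* arrays. The log2 fold change was −0.01 (standard error 0.68) for this probe and −0.14 for a second one. *Slc25a32*, which carries folate or flavin adenine dinucleotide, read 5.85, 5.51, and 4.50 on the controls against 4.78, 4.78, and 7.31 on the *ob/ob* arrays, with *ob/ob* 3 the highest and a log2 fold change of 0.34 (standard error 0.80). The iron importers *Slc25a37* and *Slc25a28* (mitoferrin 1 and mitoferrin 2) had log2 fold changes of 0.13 and −0.51. Over the 11 members of this role, 6 were below and 5 above 0 with a median of −0.01, and without control 3 and *ob/ob* 3 11 of 11 were below 0 with a median of −1.18. Of 6 genes of coenzyme A synthesis tested, 2 were below and 4 above 0, and 0 passed an unadjusted p under 0.05.

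*Slc25a30*, 1 of 3 carriers named for their likeness to the uncoupling proteins and described in kidney, had the highest log2 fold change, 2.92 (standard error 1.69). It was detected on 1 control array and 3 *ob/ob* arrays, so it passed the detection filter mainly through the *ob/ob* group. Its p values are therefore left out. It fell outside the rule for named genes, since it was not detected on all arrays, and was chosen after its values were seen. Its log2 signals were 3.69, 3.65, and 9.35 on the controls against 9.61, 9.10, and 6.74 on the *ob/ob* arrays. Control 1 and control 2 were not well above background, whereas control 3 was as bright as *ob/ob* 1 and 2. The size of the difference over all arrays thus rests in part on undetected readings. Without control 3 and *ob/ob* 3, the fold difference was not measured. With control 1 and 2 set no lower than the dimmest detected probe of each array, *ob/ob* 1 and 2 were 47.2-fold higher. An undetected probe can lie above that level, so this value is not a strict bound. The other members of this role, *Slc25a14* and *Slc25a27*, had log2 fold changes of 0.33 and −0.07. *Ucp1* itself read 13.05, 11.72, and 9.48 on the controls against 8.93, 9.12, and 10.03 on the *ob/ob* arrays. Only *ob/ob* 3 exceeded a control, control 3, and the log2 fold change was −2.06 (standard error 0.92, limma p = 0.064, exact permutation p = 0.2). *Ucp2* and *Ucp3* had log2 fold changes of 0.28 and −0.32, and *Mtch1* and *Mtch2*, outer membrane proteins of the same fold, had −0.24 and −0.38.

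Carriers of other or unsettled substrate numbered 7, of which 6 were tested, 5 of them below 0. *Slc25a53*, whose substrate is not known, was the exception, with 5.59, 5.66, and 6.94 on the controls against 7.75, 7.90, and 5.95 on the *ob/ob* arrays. *ob/ob* 3 lay below control 3, and the log2 fold change was 1.13 (standard error 0.67), or 2.20 without control 3 and *ob/ob* 3. *Slc25a47*, a carrier mostly of liver, read 5.72, 5.31, and 7.40 on the controls against 5.58, 5.89, and 5.37 on the *ob/ob* arrays. Control 3 alone was high, and the log2 fold change of −0.53 turned to 0.22 without control 3 and *ob/ob* 3. *Slc25a34* and *Slc25a46*, the latter a protein of the outer membrane, had log2 fold changes of −0.62 and −0.28, or −1.96 and −1.70 without these arrays.

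Among mitochondrial membrane transporters outside the carrier family, 23 of 24 genes were tested, 11 below and 12 above 0. 1 was lower at an unadjusted p under 0.05 (1.68% of all genes), *Abcb8*, an ATP-binding cassette transporter, whose log2 fold change was −1.83 (standard error 0.70) and whose groups overlapped. Every *ob/ob* array lay below the controls for *Abcb6* (−0.70) and *Mcur1* (−0.55) and above them for *Sfxn2* (0.49). The gaps were 0.45, 0.08, and 0.10 log2 units. Of all genes, 4.19% were separated downward and 3.76% upward. The pyruvate carrier subunits *Mpc1* and *Mpc2* had log2 fold changes of 0.78 and −0.50, which turned to −1.37 and were −2.26, respectively, without control 3 and *ob/ob* 3. The 2 enzymes of the glycerol phosphate shuttle were both below 0 with a median of −1.08, and the 3 genes of citrate export and use had a median of −0.91. 0 of these 5 genes passed an unadjusted p under 0.05.

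Markers of other cell types varied between the arrays along with some of the carriers. Skeletal muscle markers, which interscapular fat can carry from the muscle beneath it, had a summed log2 signal of 15.64, 16.19, and 12.48 on control 1, 2, and 3 and of 9.89, 9.80, and 17.38 on *ob/ob* 1, 2, and 3. *Slc25a4*, *Slc25a3*, and *Slc25a12* were likewise low on control 3 and on *ob/ob* 1 and 2 and highest on *ob/ob* 3. This order was not particular to them. It was also seen for *Slc25a22*, *Slc25a32*, *Slc25a37*, and *Slc25a51*, and outside the family for *Mpc1*, while *Slc25a53* ran the other way. Of the 12 muscle markers, 10 were detected on all arrays, 11 had a log2 fold change below 0 (57.1% of all genes), and 1 (*Mylpf*) was higher at an unadjusted p under 0.05 (2.03% of all genes). *Myh1* was at 3.62 and 3.08 on *ob/ob* 1 and 2 and not well above background there, but at 14.64 on *ob/ob* 3. Erythroid markers summed to 14.83, 12.70, and 11.58 on the controls against 12.55, 12.05, and 16.18 on the *ob/ob* arrays, with 0 of 6 tested past an unadjusted p under 0.05. The part of these cells in the carriers' values was not tested, and in bulk tissue fewer cells of a type and less RNA per cell cannot be told apart.

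The brown adipocyte markers summed to 16.65, 15.97, and 12.80 on the controls against 12.23, 12.09, and 13.64 on the *ob/ob* arrays. Of the 12, 10 were below 0 (57.1% of all genes), and 4 were lower at an unadjusted p under 0.05 (*Adrb3*, *Elovl3*, *Ppargc1a*, and *Zic1*), where 1.68% of all genes were. *Elovl3* was not well above background on any *ob/ob* array. It passed the detection filter only through the controls, so its call does not rest on a measured difference. The median of the 44 carriers was 7.11, 6.73, and 6.09 on control 1, 2, and 3 and 5.79, 5.90, and 6.91 on *ob/ob* 1, 2, and 3. It was therefore lower on *ob/ob* 1 and 2 than on any control, but higher on *ob/ob* 3 than on controls 2 and 3. The median over all genes stayed between 6.32 and 6.50. White adipocyte markers had 1 of 8 lower (*Retn*) and 0 higher at an unadjusted p under 0.05 (1.68% and 2.03% of all genes), and 0 of 6 endothelial markers passed. Of 7 macrophage markers tested, 3 were below and 4 above 0, and 0 passed.

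**Figure D5:**
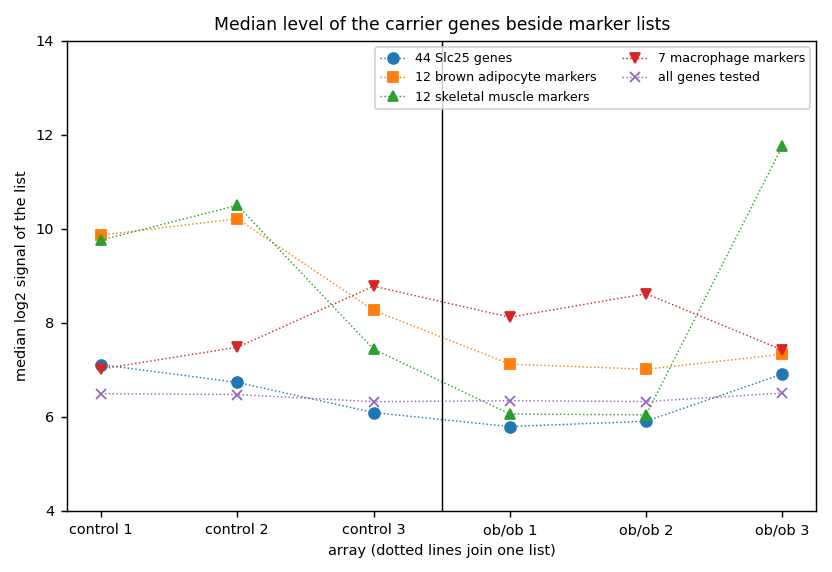
Median log2 signal (vertical axis) of the 44 carrier genes, of 12 brown adipocyte, 12 skeletal muscle, and 7 macrophage markers, and of all genes tested, on each of the 6 arrays (horizontal axis), with dotted lines that only join the points of a list. The carriers' median runs from 5.79 on *ob/ob* 1 to 7.11 on control 1, and the muscle markers are highest on *ob/ob* 3.

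The carriers also differed in which array was extreme. *ob/ob* 3 was the highest array for 18 of 44 members (30.5% of all genes) and the lowest for 9 (40.2% of all genes). Control 3 was the highest for 12 (28.9%) and the lowest for 15 (19.4%). The median range of a member over the 6 arrays was 2.09 log2 units, against 1.81 over all genes tested. These shares rest on the same 6 arrays as the comparison between the groups and add no independent replicate.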

How the data were processed

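RNA of iBAT from 3 control and 3 *ob/ob* samples was hybridized to Agilent single-color arrays. The authors deposited, for each array, the spot intensity from Feature Extraction (version 11.0.1.1), corrected for background within the array. They also deposited a log2 table of the same arrays, quantile normalized in GeneSpring. Here, control and outlier spots were dropped, and log2 intensities were averaged per probe and quantile normalized. Probes were kept if at least 50% of their spots were well above background on at least 3 of 6 arrays. Groups came from the sample titles. They were compared with limma (version 3.58.1, R 4.3.3) over all probes kept, with Benjamini-Hochberg adjustment over them, and with a two-sided exact permutation test for single genes. The code was tested on simulated data. Arrays carry no counts, so their number limits the precision.

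Probes were named through their RefSeq accessions and the RefSeq table of GRCm38.p6 (27234 of 28684 named). Values on every array were given for members without overlap between groups, the 5 highest and 5 lowest log2 fold changes among members detected on all arrays, the 5 brightest probes, and carriers much studied in brown fat or main for their substrate. The members, gene lists, and marker lists were chosen with earlier results of these data known. Some genes that the lists and the naming rule cover are not reported here by name, and counts and medians of the lists include those that were tested. Alternatives were scaling to the 75th percentile, normexp (offset 50), the authors' normalized values, 3 other detection filters, the methods' t-test, limma with trend and robust estimation, array quality weights, blocks for replicate number and scan, the mean of a gene's probes, and leaving out arrays. Probe sequences and the protein sequences of the members were not analysed here. Python 3.11.15 with pandas 2.3.3 was used for the tables, and matplotlib 3.10.9 for the figures.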

Additional observations from a re-analysis of the deposited data

How the results depend on the processing

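The precision is limited by 3 arrays a group, of which control 3 and *ob/ob* 3 stand apart, and dim probes such as that of *Slc25a10*, which could not be fitted with detection on all 6 arrays, limit it further. Over 19 alternatives, the members' median log2 fold change ranged from −0.46 to 0.041, and it was above 0 with normexp (0.0045) and in 1 fit that left out a single array, where it ranged from −0.38 to 0.041. The number of members lower at an unadjusted p under 0.05 was 0 as reported, 20 with array quality weights (30.8% of all genes), 20 without control 3 and *ob/ob* 3 together (29.8%), 1 with the mean of a gene's probes (*Slc25a44*, where 1.45% of all genes were lower), 1 with normexp (*Slc25a38*, where 2.13% were), and 0 to 2 when 1 array was left out. The latter included *Slc25a42* without control 3 (4.19% of all genes) and *Slc25a40* without *ob/ob* 3 (4.46%). The number higher was 6 with array quality weights (27.2% of all genes), 5 without control 3 and *ob/ob* 3 together (25.5%), and 0 to 1 when 1 array was left out (*Slc25a30* without control 3, where 5.36% of all genes were, and *Slc25a53* without *ob/ob* 3, where 5.84% were). The first 2 of these counts also include *Slc25a30*. Its probe was not well above background on control 1 and control 2, so its calls do not rest on a measured difference. At an adjusted p under 0.05, 24 members passed with array quality weights, where 52.2% of all genes did, 23 passed without control 3 and *ob/ob* 3 together, and 0 passed when 1 array was left out. The weights gave control 3 and *ob/ob* 3 the lowest values (0.17 and 0.082). They were estimated from the same signals, so the p values of the weighted fit may be too small, as without those arrays. Its counts are only a description. With the replicate number as a block, 0 members were higher and 0 lower at an unadjusted p under 0.05 (0.379% and 0.689% of all genes), and the replicate block changed no call. Samples sharing a number deviated in opposite ways from their group means (correlations −0.78, −0.66, and −0.85). Those means include control 3 and *ob/ob* 3, so the correlations cannot say whether the numbers pair the samples.

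The log2 fold changes of *Slc25a11*, *Slc25a23*, *Slc25a39*, *Slc25a40*, *Slc25a42*, and *Slc25a53* kept their sign under all alternatives run. The methods' t-test, the detection filters, and the replicate block leave a probe's log2 fold change as it is and could not turn it. Those of the members listed next turned under some alternatives, and the cause was not tested. Members outside the naming rule, such as *Slc25a30* and *Slc25a38*, were not followed in this way. With 75th percentile scaling, the value was −0.16 for *Slc25a1*, −0.24 for *Slc25a13*, 0.099 for *Slc25a44*, and 0.062 for *Slc25a51*. With normexp, it was −0.10 for *Slc25a13*, 0.0086 for *Slc25a44*, and 0.026 for *Slc25a51*. With array quality weights, it was −1.75 for *Slc25a3*, −0.18 for *Slc25a5*, −1.81 for *Slc25a12*, −0.73 for *Slc25a32*, and 0.24 for *Slc25a47*. The fit with the scan as a block compared only the arrays of the shared scan. There the value was −0.61 for *Slc25a3*, −1.08 for *Slc25a12*, −0.083 for *Slc25a24*, and −0.39 for *Slc25a32*. Without control 3 and *ob/ob* 3 together, it was −0.039 for *Slc25a1*, −2.11 for *Slc25a3*, −0.63 for *Slc25a5*, 0.028 for *Slc25a10*, −1.91 for *Slc25a12*, −0.19 for *Slc25a24*, −0.89 for *Slc25a32*, and 0.22 for *Slc25a47*. With the mean of a gene's probes, it was 0.031 for *Slc25a25*. When 1 array was left out, the values ran from −0.18 to 0.25 for *Slc25a1*, from −1.14 to 1.59 for *Slc25a3*, from −2.22 to 0.88 for *Slc25a4*, from −1.18 to 0.84 for *Slc25a12*, from −0.36 to 0.43 for *Slc25a13*, from −2.29 to 0.15 for *Slc25a22*, from −0.32 to 1.44 for *Slc25a24*, from −0.50 to 0.77 for *Slc25a32*, from −0.15 to 0.076 for *Slc25a44*, from −0.95 to 0.094 for *Slc25a47*, and from −0.57 to 0.35 for *Slc25a51*.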
